A study of Homo sapiens with 13 samples.

Results

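The exon junction complex is a set of proteins that the spliceosome leaves on mRNA upstream of each spliced junction. The 10 genes described here encode its core and its closest splicing partners, and they were taken by gene symbol from the tables of a study of the splicing factor SRSF2. All 10 were found among 58581 genes of the RNA-seq table, and 44 of the 8100 distinct windows in the RNA-binding table carried the symbol of 5 of them. Cells were HEL, a human erythroleukemia line, stably carrying a doxycycline-controlled SRSF2 construct. One form had P95H, a substitution found in myelodysplastic syndromes, and the other was wild type (WT). HITS-CLIP, which recovers and sequences RNA crosslinked by ultraviolet light to a protein immunoprecipitated here through Flag, covered 4 P95H and 4 WT samples after 36 hours of doxycycline at 1 µg/ml. RNA-seq of rRNA-depleted RNA covered 2 P95H and 2 WT libraries after 48 hours at that dose, and 1 P95H library labelled uninduced. Every group thus carried a construct, no group without it was analysed here, and the labels do not say whether a line was a single clone.

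EIF4A3, a DEAD-box helicase, clamps RNA within the core of the complex, and the heterodimer of RBM8A (Y14) with MAGOH or its near-identical paralog MAGOHB locks that clamp. CASC3 (MLN51, Barentsz) joins as an outer core subunit. RNPS1 and SAP18 form the ASAP complex with ACIN1 (acinus) or the PSAP complex with PNN (pinin), and SRRM1 (SRm160) is a splicing coactivator found with the complex. A junction complex that stays downstream of a stop codon marks an mRNA for nonsense-mediated decay. SRSF2 is an SR protein that binds exonic enhancers, and the comparisons ask how the P95H form changes where it binds and what RNA the cells hold.

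Total counts ran from 37414093 to 45005605 per RNA-seq library, at which 3 counts equal 0.0667 to 0.0802 CPM, counts scaled to the size of the library. Of 11 erythroid and megakaryocytic markers, 9 had at least 1 CPM in every library and the 11 summed to 1329 to 1848 CPM per library. GP1BB was at 0 in every library and PF4 at 0 to 0.0533 CPM. None of 15 markers of lymphoid, myeloid, epithelial and fibroblast cells reached 1 CPM in every library, and these summed to 0.836 to 1.39 CPM. SRSF2 itself had 223 and 252 CPM in P95H libraries, 222 and 241 CPM in WT libraries and 285 CPM in the library labelled uninduced. The library labelled uninduced was thus the highest in SRSF2 rather than the lowest. SRSF2 counts do not separate the construct from the endogenous transcripts, so the label could not be checked from them. The share of counts from protein genes of the mitochondrial genome was 1.38% in replicate 1 of P95H and of WT, 4.30% in P95H replicate 2, 4.50% in WT replicate 2 and 4.14% in the library labelled uninduced. Values are therefore also given between libraries of the same number. How far apart the replicate cultures were kept is not described, so p-values measure only the spread between these libraries.

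ACIN1 and PNN, the alternative scaffold subunits of ASAP and PSAP, held most of the 44 windows of changed SRSF2 binding listed for these genes. ACIN1 had 23, all lower in P95H, which ranked it 37th by number among the 2382 genes with a window. PNN had 15, of which 13 were lower, and ranked 66th. CASC3 had 4, and RBM8A and EIF4A3 1 each. In the authors' deposited table, 41 of the 44 (93.2%) were lower in P95H and 3 were higher, beside 77.7% lower among all 8100 windows. Windows span 20 or 21 bases from start to end and many overlap, so they are not independent. Merged where they overlapped in the same strand and direction, the 44 windows formed 15 regions, of which 12 were lower (80.0%), beside 66.1% of all 3742 regions. The median log2 change in the authors' deposited table was -2.34 over the 44 windows, against -1.62 over all windows. A single ACIN1 region held 14 of the 44, at -3.99 to -3.03 in the authors' deposited table, and weighs on that median. By gene the median was -3.41 in ACIN1, -1.71 in PNN and -1.115 in CASC3 in the authors' deposited table. The single windows of RBM8A and EIF4A3 stood at -1.32 and 2.65 there. No median over merged regions was computed. No listed window had an adjusted p above 0.05 or a change below 2-fold, so a gene without a window was not shown to be unbound. MAGOH, MAGOHB, RNPS1, SAP18 and SRRM1 had none. Of the 3983 genes whose RNA stood at or above the level of MAGOHB, the lowest of the 10, 28.9% had a listed window.

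**Figure D1:**
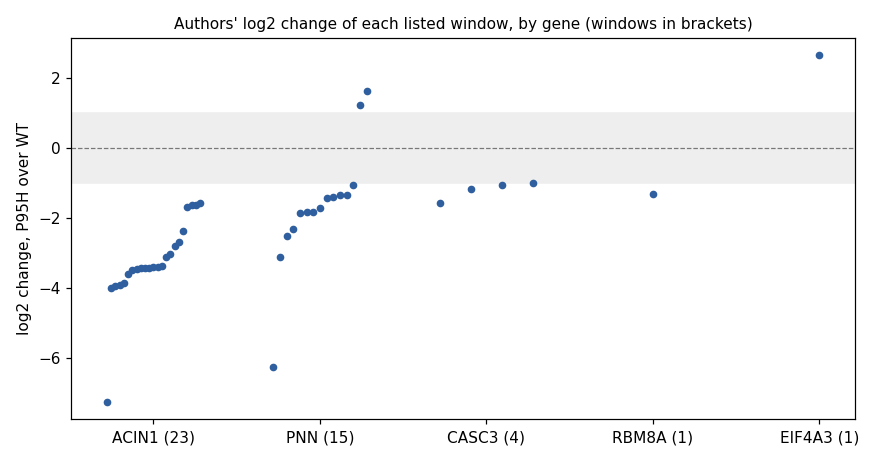
Each point is a listed HITS-CLIP window, placed by gene, with the authors' log2 change of P95H over WT on the vertical axis and the number of windows in brackets. The grey band marks changes under 2-fold, which the table does not list. All 23 ACIN1 windows lie below 0, as do 13 of the 15 in PNN.

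ACIN1 lies on chromosome 14 (23058564 to 23095614, minus strand, GRCh38), and its 5 regions were all lower in P95H. The densest one, chr14:23059402-23059464, lay 36150 to 36192 bases from the 5' end of the gene and held 14 overlapping windows. In the authors' deposited table its most strongly bound window (chr14:23059409-23059429) averaged 1.96 ± 1.40 CPM in P95H and 18.2 ± 15.7 CPM in WT (authors' SEM), a log2 change of -3.42. The window there with the strongest statistical call (chr14:23059431-23059451) averaged 0.73 ± 0.41 CPM in P95H and 10.1 ± 8.21 CPM in WT (authors' SEM), a log2 change of -3.99 at an adjusted p of 1.62e-11 in the authors' deposited table. Over the 14 windows of this region in the authors' deposited table, P95H means ran from 0.62 to 2.00 CPM and WT means from 4.89 to 18.2 CPM, with log2 changes of -3.99 to -3.03. The P95H and WT means did not overlap along this stretch, but the WT means carried standard errors nearly as large as themselves.

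About 14.9 kilobases from the 5' end, the pair of windows in chr14:23080675-23080707 had P95H means of 0.54 and 1.87 CPM and WT means of 5.10 and 9.71 CPM in the authors' deposited table, at log2 changes of -3.86 and -2.67. The next window, chr14:23080646-23080666, had a log2 change of -1.56 in the authors' deposited table. Around 32 kilobases from the 5' end, 5 windows in chr14:23063534-23063579 changed unequally within 46 bases. The one nearest the 5' end (chr14:23063559-23063579) was listed at 0.00 CPM in P95H and averaged 1.34 ± 0.77 CPM in WT (authors' SEM), with a log2 change of -7.25 at an adjusted p of 5.93e-10 in the authors' deposited table. A change against 0 depends on the offset used, which the table does not state. Of the other 4 windows there, 3 stood between -1.69 and -1.62 and 1 at -2.81 in the authors' deposited table. A lone window at chr14:23061438-23061458 completed the gene, with 0.16 ± 0.09 CPM in P95H and 1.18 ± 1.12 CPM in WT in the authors' deposited table (authors' SEM). No ACIN1 window was higher in P95H.

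PNN, on the same chromosome (39175183 to 39183218, plus strand), had both directions. In its main region, chr14:39180612-39180658, 6 windows had P95H means of 1.61 to 5.01 CPM and WT means of 14 to 17.4 CPM in the authors' deposited table, with log2 changes of -3.10 to -1.82. The window with the smallest adjusted p there (chr14:39180616-39180637) averaged 1.61 ± 0.65 CPM in P95H and 14 ± 9.55 CPM in WT (authors' SEM), at an adjusted p of 2.56e-09 in the authors' deposited table. A short way downstream, 1 window between lower ones was higher in P95H. At chr14:39180732-39180752 it averaged 2.48 ± 1.47 CPM in P95H and 0.92 ± 0.91 CPM in WT in the authors' deposited table (authors' SEM). Its log2 change was 1.24 at an adjusted p of 0.0157 in the authors' deposited table. The 3 windows of chr14:39180770-39180811 were lower again, between -1.40 and -1.07 in the authors' deposited table.

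A pair of windows with opposite directions lay near the 5' end of PNN. The window 121 bases from the start of the gene (chr14:39175304-39175324) was listed at 0.00 CPM in P95H and 0.57 ± 0.50 CPM in WT, and the one 174 bases from it (chr14:39175357-39175377) at 0.58 ± 0.37 CPM in P95H and 0.13 ± 0.12 CPM in WT (authors' SEM) in the authors' deposited table. Their log2 changes were -6.24 and 1.63, at means below 1 CPM on either side, as given in the authors' deposited table. The remaining 3 PNN windows, 6573 to 6639 bases from the start, stood between -1.71 and -1.34 in the authors' deposited table.

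**Figure D2:**
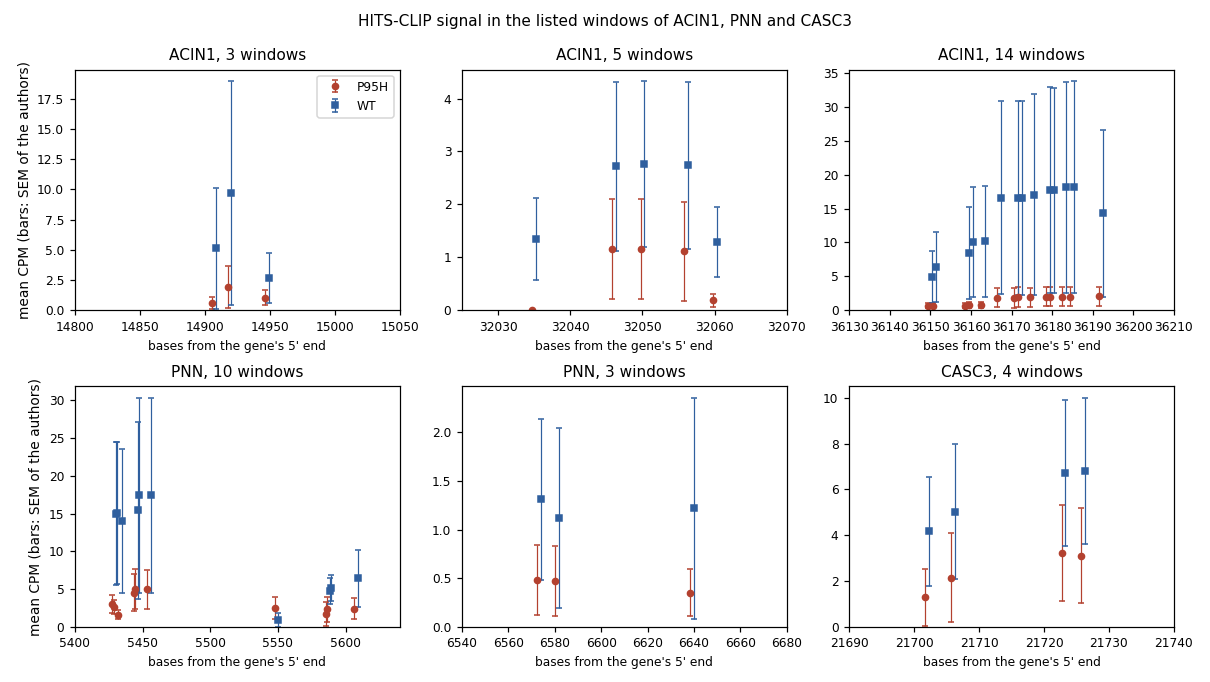
Mean HITS-CLIP signal (CPM, vertical axis, bars the authors' SEM) in the listed windows of ACIN1, PNN and CASC3, lone windows apart from these stretches left out, against distance from the 5' end of the gene (horizontal axis, bases), P95H as circles and WT as squares. In the ACIN1 panel with 14 windows WT means reach 18.2 CPM and P95H means stay at or below 2.00 CPM, while the error bars of WT reach close to the P95H means.

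CASC3, RBM8A and EIF4A3 carried the other 6 windows. The 4 CASC3 windows merged into chr17:40162020-40162064, and their P95H means of 1.28 to 3.21 CPM lay below WT means of 4.17 to 6.81 CPM in the authors' deposited table, with log2 changes of -1.58 to -1.01. The last 2 of these, at -1.01 and -1.07 in the authors' deposited table, lay close to its 2-fold limit. The RBM8A window (chr1:145927062-145927082), 596 bases from the 5' end, averaged 1.78 ± 1.22 CPM in P95H and 4.53 ± 2.95 CPM in WT (authors' SEM), a log2 change of -1.32 in the authors' deposited table. The processed pseudogene RBM8B had a window with exactly the same means, change and adjusted p in the authors' deposited table (chr14:60397819-60397839). Reads of RBM8A and RBM8B in these windows can therefore not be told apart, and no other window of the 10 genes had such a copy elsewhere. The single window of EIF4A3 was higher in P95H. At chr17:80139679-80139699 it averaged 0.68 ± 0.44 CPM in P95H and 0.07 ± 0.06 CPM in WT (authors' SEM), a log2 change of 2.65 at an adjusted p of 0.000424 in the authors' deposited table.

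The authors assigned 38 of the 44 windows to protein-coding transcripts. The other 6 lay in alternative products of the genes themselves, 4 in an ACIN1 transcript annotated for nonsense-mediated decay (ACIN1-005) and 2 in a retained-intron transcript of PNN (PNN-006). All 6 were lower in P95H, with log2 changes of -3.41 and -3.40 in the main ACIN1 region, -1.69 and -1.63 in its region 32 kilobases from the 5' end, and -1.83 and -1.85 in PNN, in the authors' deposited table. They overlapped windows assigned to protein-coding transcripts, so binding to either product cannot be told apart.

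The replicate spread behind these windows was wide. For the 4 samples per genotype, whose values cannot be negative, the standard error of a mean can at most equal the mean. That happens when a single library holds all the signal. The ratio of the standard error to the mean sets a lower limit on the share of the strongest library. The share itself can be higher. In the main ACIN1 region this lower limit was 71.2% to 81.9% of the WT signal. In the upstream ACIN1 pair of windows it was 93.7% and 97.7%, and in the main PNN region 54.3% to 68.7%. In the 3 PNN windows at chr14:39180770-39180811 it was 33.1% to 50.7%, and in CASC3 41.5% to 50.97% of the WT signal. In P95H it was 50.4% to 91.2% in those PNN windows and 56.8% to 97.7% in CASC3. In the higher PNN window at chr14:39180732-39180752 it was 98.4% of the WT signal and 51.35% of the P95H signal. Which library was the strongest is not given by the authors. For none of the 44 windows did the difference of the mean CPM exceed 2 combined standard errors, and the same held for all but 1.05% of the 8100 windows. The ACIN1 window with the smallest adjusted p of the 44 in the authors' deposited table had a CPM difference of -9.40 with a combined standard error of 8.22.

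No RNA difference of the 10 genes between P95H and WT passed the test. EdgeR's quasi-likelihood test called 0 of the 10 genes and 0% of the 22007 genes tested, and 227 genes but none of the 10 had an unadjusted p under 0.05. DESeq2 called 0 genes, with 100 at that unadjusted level. The median log2 difference of the 10 was -0.00048, with 5 above and 5 below 0 (4 and 6 with DESeq2 size factors), beside a median of 0.0020 over all genes tested. The split rested on single libraries. It was 8 above and 2 below 0 without P95H replicate 1 (median 0.050) and without WT replicate 2 (0.049), 3 and 7 without P95H replicate 2 (-0.066), and 4 and 6 without WT replicate 1 (-0.050). Intervals of 95% were computed from the standard errors of that fit. Across the 10 genes they ran no further down than a 0.707-fold level (PNN) and no further up than a 1.41-fold level (MAGOHB). Levels are given as CPM after scaling for library composition and are compared between libraries, not between genes. Fewer cells of a type and less RNA per cell cannot be told apart in such bulk samples.

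**Figure D3:**
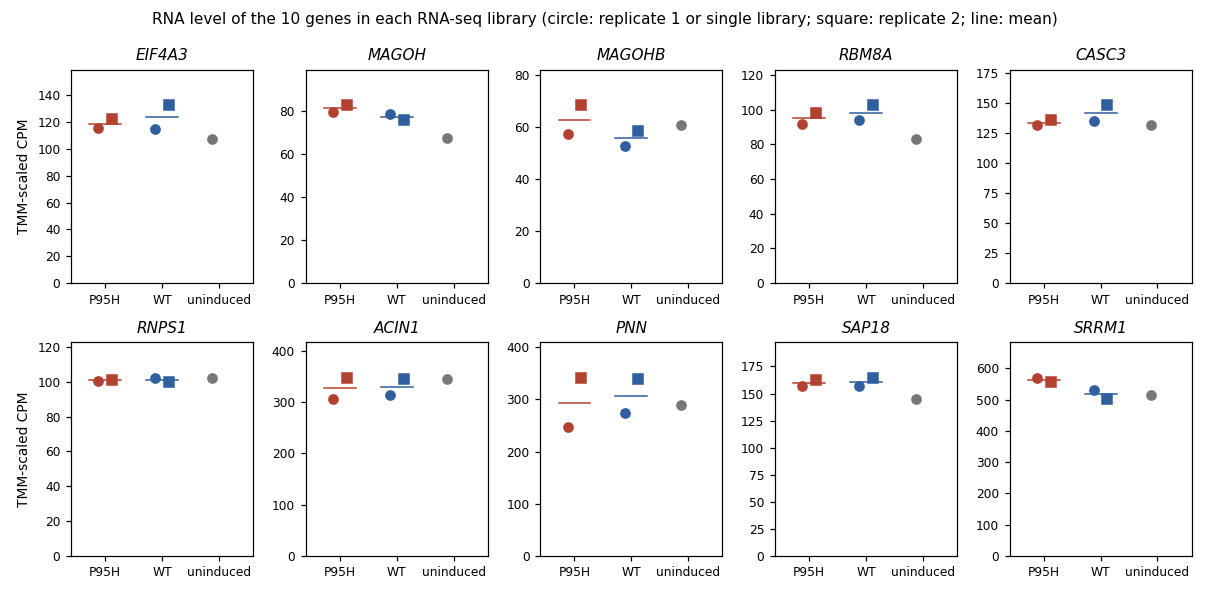
RNA level (CPM, vertical axis from 0) of the 10 genes in each RNA-seq library, P95H left of WT and of the library labelled uninduced. Circles are replicate 1 or the single library, squares replicate 2 and lines the means. PNN shows the widest gap between replicates, 247 and 341 CPM in P95H.

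Among core genes, EIF4A3 (chr17:80135214-80147183) had 115 and 122 CPM in P95H libraries and 115 and 133 CPM in WT libraries. Its groups overlapped, at a log2 difference of -0.048 (SE 0.11), with 0.0055 and -0.12 between libraries of the same number. RBM8A (chr1:145917714-145927678) had 91.9 and 98.1 CPM in P95H libraries and 93.9 and 102 CPM in WT libraries, likewise overlapping (-0.037, SE 0.10), and stood at -0.031 and -0.063 between libraries of the same number. MAGOH (chr1:53226892-53238610) had 79.9 and 82.9 CPM in P95H libraries and 78.7 and 76.1 CPM in WT libraries, so both P95H values lay above both WT values. Its log2 difference of 0.083 (SE 0.098), with 0.021 and 0.12 between libraries of the same number, did not pass the test. MAGOHB (chr12:10604190-10613623), the paralog, had 57.3 and 68.4 CPM in P95H libraries and 52.9 and 58.5 CPM in WT libraries, with a log2 difference of 0.19 (SE 0.13). It was higher in P95H within both replicate numbers, by 0.12 and 0.23 on the log2 scale, and did not pass (edgeR adjusted p 0.9999). Without P95H replicate 2 the fitted difference was 0.042, and without P95H replicate 1 it was 0.30. MAGOH and MAGOHB encode near-identical proteins, and how reads were assigned between these genes was not examined here. The ratio of MAGOH to MAGOHB counts was 1.39 and 1.21 in P95H libraries, 1.49 and 1.30 in WT libraries and 1.11 in the library labelled uninduced.

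CASC3 (chr17:40140318-40172183), the outer core subunit, had 132 and 136 CPM in P95H libraries and 135 and 148 CPM in WT libraries, a log2 difference of -0.071 (SE 0.10), with -0.034 and -0.13 between libraries of the same number. RNPS1 (chr16:2253116-2268412), which ASAP and PSAP share, varied least, with 100.4 and 101.2 CPM in P95H libraries and 102.0 and 99.7 CPM in WT libraries. Its highest level over the 5 libraries was 1.02 times its lowest, beside a median of 1.22 over the 3983 genes expressed at or above the level of MAGOHB. SAP18 (chr13:21140514-21149084), the other shared subunit, had 157 and 163 CPM in P95H libraries and 157 and 164 CPM in WT libraries. Between libraries of the same number RNPS1 differed by -0.023 and 0.022, and SAP18 by -0.0045 and -0.016. SRRM1 (chr1:24631716-24673267), the splicing coactivator, had 569 and 555 CPM in P95H libraries and 530 and 503 CPM in WT libraries, so its groups did not overlap. Its log2 difference of 0.13 (SE 0.11) did not pass, with a 95% interval from -0.13 to 0.39 and values of 0.10 and 0.14 between libraries of the same number. MAGOH and SRRM1 were the 2 of 10 genes with both P95H libraries above both WT libraries. Of the 23970 genes kept with all 5 libraries, 12.8% had this order. In 0 of the 10 both P95H libraries lay below both WT libraries, against 11.9% of those 23970 genes.

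For ACIN1 and PNN, whose listed SRSF2 binding was mostly lower in P95H, the RNA difference did not pass the test either. ACIN1 had 307 and 348 CPM in P95H libraries and 315 and 345 CPM in WT libraries, a log2 difference of -0.0012 (SE 0.12) with a 95% interval from -0.28 to 0.28. PNN had 247 and 341 CPM in P95H libraries and 274 and 339.6 CPM in WT libraries, a log2 difference of -0.050 (SE 0.19) with a 95% interval from -0.50 to 0.40. The P95H and WT libraries of PNN followed their replicate number rather than their genotype. Replicate 2 of PNN lay above replicate 1 by 0.47 on the log2 scale in P95H and by 0.31 in WT. The library labelled uninduced stood between at 290 CPM. In ACIN1 replicate 2 also lay above replicate 1, with smaller steps, 0.18 in P95H and 0.13 in WT. Its level in the library labelled uninduced, 345.6 CPM, lay among those of the replicate 2 libraries. EIF4A3, MAGOHB, RBM8A, CASC3 and SAP18 also had both replicate 2 libraries above both replicate 1 libraries. The share of all genes with this order was not computed. Across 23970 genes, same-numbered P95H and WT libraries deviated together from their group means (r = 0.474), so such shifts reached beyond these genes. The mitochondrial share of counts, 1.38% in replicate 1 and 4.30% to 4.50% in replicate 2, moved with these PNN levels, and its part in them was not tested. The library labelled uninduced had a share of 4.14%, close to replicate 2, with a PNN level nearer those of replicate 1. Between libraries of the same number PNN differed by -0.15 and 0.0069, and ACIN1 by -0.037 and 0.010. The ratio of PNN to ACIN1 counts was 0.804 and 0.982 in P95H libraries, 0.868 and 0.984 in WT libraries and 0.840 in the library labelled uninduced. Which exons hold the windows, and whether the transcripts are spliced differently, was not analysed here.

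**Figure D4:**
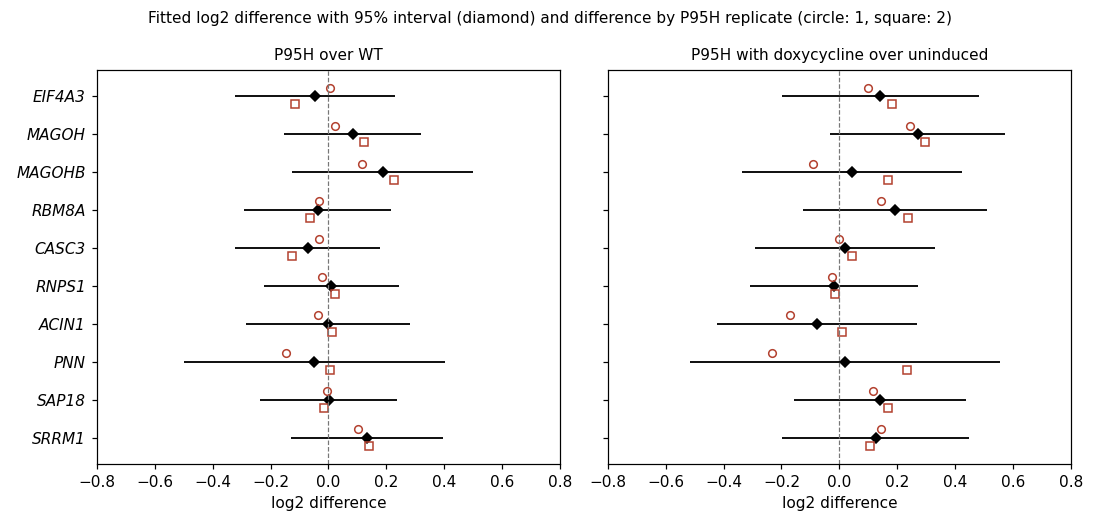
Log2 difference of the 10 genes (horizontal axis) for P95H over WT and for P95H with doxycycline over the library labelled uninduced, with fitted values as diamonds, 95% intervals as lines and single P95H replicates as circles (1) and squares (2). All intervals include 0, and PNN and ACIN1 have their replicates on opposite sides of 0 in both panels.

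Against the library labelled uninduced, 8 of the 10 genes stood above 0 and 2 below it in the P95H libraries given doxycycline (9 and 1 with DESeq2 size factors, where RNPS1 changed sign), at a median log2 difference of 0.084, beside 0.0016 over all genes tested. The tally was 10 and 0 without P95H replicate 1 (median 0.18) and 5 and 5 without P95H replicate 2 (median 0.046). EdgeR's quasi-likelihood test called 0 of the 10 and 0% of 23970 genes, and 818 genes but none of the 10 had an unadjusted p under 0.05. DESeq2 called 7 genes of all tested, none of the 10. MAGOH had the largest difference, with 79.9 and 82.9 CPM in P95H libraries against 67.5 CPM in the library labelled uninduced, a log2 difference of 0.27 (SE 0.13) and a 95% interval from -0.031 to 0.57 (edgeR adjusted p 0.972). RBM8A followed at 0.19 (SE 0.13), with 91.9 and 98.1 CPM in P95H libraries against 83.1 CPM. EIF4A3, at 107.7 CPM in the library labelled uninduced, and SAP18, at 145 CPM there, stood at 0.14 each. These 4 genes had lower levels in the library labelled uninduced than in all 4 libraries given doxycycline, WT included, as did 21.4% of all genes tested. RNPS1 was the 1 of 10 with its highest level there, at 102.2 CPM, as had 25.9% of all genes. MAGOHB, at 61.0 CPM there, had its P95H replicates on either side of that library, at -0.090 and 0.17 on the log2 scale. The fitted log2 difference was 0.12 for SRRM1, 0.044 for MAGOHB, 0.020 for CASC3 and 0.020 for PNN. It was -0.020 for RNPS1 and -0.078 for ACIN1. A single library stands for the uninduced state, so these differences rest on the spread of the replicated groups.

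Other genes of the pathway were taken from a list of 32, holding loaders and removers of the complex, decay factors that read it, and export factors. All 32 were tested, and edgeR called 0 in P95H against WT (13 above and 19 below 0, median log2 difference -0.0063) and 0 against the library labelled uninduced (22 above and 10 below 0, median 0.075). In the authors' deposited table, 14 of the 32 had windows, 32 of them lower and 20 higher in P95H, so 61.5% were lower, beside 77.7% of all windows. Merged, these 52 windows formed 30 regions, of which 18 were lower (60.0%), beside 66.1% of all regions. The following were picked after their values were seen. UPF3A and UPF3B, which link the junction complex to the decay factor UPF2, had 8 windows in 5 regions and 6 windows in 1 region, all lower in P95H. UPF2 itself had 2 windows in 1 region, both higher. CWC22, which delivers EIF4A3 to the spliceosome, had 3 windows in 3 regions, all lower. DDX39B, an export helicase, and SMG6, the endonuclease of nonsense-mediated decay, had 6 windows in 3 regions and 5 windows in 2 regions, all higher. SRRM2, which acts with SRRM1 as a splicing coactivator, had 6 lower and 3 higher.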

How the data were processed

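For RNA-seq the authors deposited unnormalised whole-number counts, 1 row per Ensembl gene. GRCh38.p3, TopHat2 2.0.14, STAR 2.5.3a and edgeR appear, without roles, in the submitters' processing notes. The sources used here name no counting program, strand setting or annotation release. Reads of genes that overlap some of the 10 may therefore be included. For HITS-CLIP the authors deposited, per window, a log2 change of P95H over WT, an adjusted p-value (FDR, method not stated), and mean CPM with its standard error per genotype. The total behind those CPM is not stated. The 8324 entries included 224 at a position already listed, which were dropped. Coordinates are printed as the files give them.

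The fits ran under R 4.3.3 (edgeR 4.0.16, DESeq2 1.42.0) with filterByExpr, TMM scaling, and the two-sided quasi-likelihood test on group alone, with Benjamini-Hochberg adjustment over all genes tested and a threshold of 0.05. P95H against WT used 4 libraries, and the comparison with the library labelled uninduced all 5. CPM are TMM-scaled, and per-library log2 differences used a prior count of 2. The fits were also run on simulated counts drawn without a replicate effect, which did not check them against replicate differences such as those seen here. Regions merge windows that overlap by at least 1 base (Python 3.11.15, pandas 2.3.3). No sequence of a window was read, since no genome was used here. None of the 44 windows overlapped a RefSeq start-site sequence, and such sequences were at hand for 8 of the 10 genes. All 10 genes are named throughout. The genes and lists were chosen with earlier results of these data known. Alternatives covered scaling, test, filters, replicate block, left-out libraries and window thresholds.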

Additional observations from a re-analysis of the deposited data

How the results depend on the processing

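No alternative called any of the 10 genes. Some values close to 0 changed sign. In P95H against WT, ACIN1 stood at 0.012 with a mean of at least 1 CPM required, and SAP18 at -0.0089 with DESeq2 size factors, -0.0088 in DESeq2 and -0.0020 without a filter. Against the library labelled uninduced, RNPS1 stood at 0.0032 with DESeq2 size factors and in DESeq2. Leaving out 1 library at a time gave EIF4A3 -0.15 to 0.049, MAGOHB 0.042 to 0.30, RBM8A -0.10 to 0.017, RNPS1 -0.017 to 0.025, ACIN1 -0.10 to 0.080, PNN -0.31 to 0.16 and SAP18 -0.036 to 0.022 in P95H against WT. Against the library labelled uninduced it gave MAGOHB -0.092 to 0.19, CASC3 -0.0046 to 0.062, RNPS1 -0.028 to 0.0048, ACIN1 -0.17 to 0.027 and PNN -0.23 to 0.25. A lone sample is then assumed to vary like the replicated group.

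Same-numbered P95H and WT libraries deviated together from their group means (r = 0.474 across genes), with 2 pairs and no label that pairs them. With the replicate number as a replicate block, which leaves 1 residual degree of freedom in P95H against WT, 84 of all genes were called, against 0 on group alone and 15 without a filter, and 0 of the 10. Against the library labelled uninduced the replicate block called 3685 genes with that library placed among replicate 1 and 866 with it among replicate 2, with 92 without a filter, 7 in DESeq2 and 0 on group alone. These were 15.4% and 3.61% of all genes tested in the first and second placing of the replicate block. Of the 10 genes the replicate block called 0 in either placing. Of the 32 pathway genes it called 7 (21.9%) in the first and 0 in the second. The 10 split into 5 above and 5 below 0 in the first placing (median 0.026) and 8 and 2 in the second (0.15). In the first placing MAGOHB stood at -0.062, CASC3 at -0.026 and PNN at -0.19. Adjusted p of the 10 genes over the alternatives ran from 0.523 in P95H against WT and from 0.0748 against the library labelled uninduced.

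Of the 41 windows lower in P95H, 30 passed an adjusted p of 0.01, and merging left 12 regions. A change of at least 4-fold was listed for 23 of the 41 (56.1%), beside 48.2% of all lower windows. These 23 include the 14 overlapping windows of 1 ACIN1 region, at log2 changes of -3.99 to -3.03 in the authors' deposited table. The 4-fold share was not computed over merged regions. Of the 3 higher windows, 1 passed an adjusted p of 0.01 and 1 changed at least 4-fold. By the criterion of 2 combined standard errors, chosen after the data were seen, 0 windows remained in either direction.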
